A study of Mus musculus with 6 samples.

Results

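The 32 genes described here encode the enzymes and regulators that make, activate, store and oxidise fatty acids. They were chosen by name as a pathway, with earlier results of these data known, and matched to the array through the transcript accession of each probe. All 32 were on the array, among 37074 genes and transcribed intervals, and all 32 were among the 25439 that could be tested. Every member's brightest probe was well above background on all 6 arrays.

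The samples were J1 mouse embryonic stem cells, an established line of strain 129S4/SvJae and of inner cell mass origin, adapted to gelatin-coated plates. All cells were kept in a medium with serum replacement and 1000 U/ml LIF, the cytokine that holds them in self-renewal. The treated group received 1 µM SC1 for 6 h and the control group the solvent DMSO for 6 h, with 3 samples in each group. SC1 (pluripotin) is known as a small-molecule inhibitor of the kinase ERK1 and of the RAS GTPase-activating protein. The labels do not say that the 3 samples of a group were separate cultures, so the p-values reflect only how far these samples scatter, and that scatter may be technical.

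Fatty acid synthesis starts in the cytosol with acetyl-CoA, which acetyl-CoA carboxylase turns into malonyl-CoA and fatty acid synthase joins into palmitate with electrons from NADPH. Elongases lengthen the chain, desaturases add double bonds, and acyl-CoA synthetases attach coenzyme A so that the chain can be built into membrane lipids and triglyceride or be burned. Oxidation takes place mainly in mitochondria, where carnitine palmitoyltransferase 1 admits the chain, and malonyl-CoA blocks that step. Dividing cells draw on new fatty acids for membranes, and the transcription factors SREBP-1, SREBP-2 and ChREBP are the best known activators of the synthesis genes.

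Each array gave 1 brightness per probe from Cy3-labelled RNA. Levels below are the log2 of that signal relative to the array's own 75th percentile, so 0 is the brightness of a probe at the 75th percentile, and levels of different genes are not comparable. Triplets of values list replicates 1, 2 and 3 in that order. Differences are log2 fold changes of SC1 over DMSO from limma (n = 3 arrays per group), and a gene is said to have risen or fallen when its Benjamini-Hochberg adjusted p over all 25439 genes was under 0.05. The 75th percentile signal was 532.2 to 539 in DMSO and 443.3 to 493.3 in SC1. Log2 differences between a pair of arrays had an SD of 0.222 to 0.256 inside a group and of 0.491 to 0.509 across groups. The number of arrays limits the precision.

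After 6 h of SC1, 16 of the 32 genes had fallen and 5 had risen, while 11 did not pass. Among all genes tested 20.2% fell, 18.1% rose and 38.3% passed in either direction. Scd1, which encodes the main stearoyl-CoA desaturase of liver and fat, fell most, and Elovl7, an elongase gene, rose most. The median log2 fold change of the members was -0.18, beside -0.0052 over all genes, and 21 of 32 lay below 0. For 24 members the groups had no overlap, beside 52.1% of all genes. These are bulk samples, in which fewer cells of a type and less RNA per cell cannot be told apart. Over all genes 5139 fell and 4612 rose, against 5073 and 6977 with normexp background correction before the same scaling and 4653 and 5055 with quantile normalization. With the normexp setting 16 members fell and 5 rose. A fit with the slide column as the block takes its fold changes from SC1 replicate 1 alone against the DMSO arrays. With spike-in scaling 8 members fell and 3 rose, and with slide column as the block 7 fell and 4 rose. Over all 25439 genes 2780 fell and 2288 rose with spike-in scaling, and 2855 fell and 2690 rose with the slide column block.

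**Figure D1:**
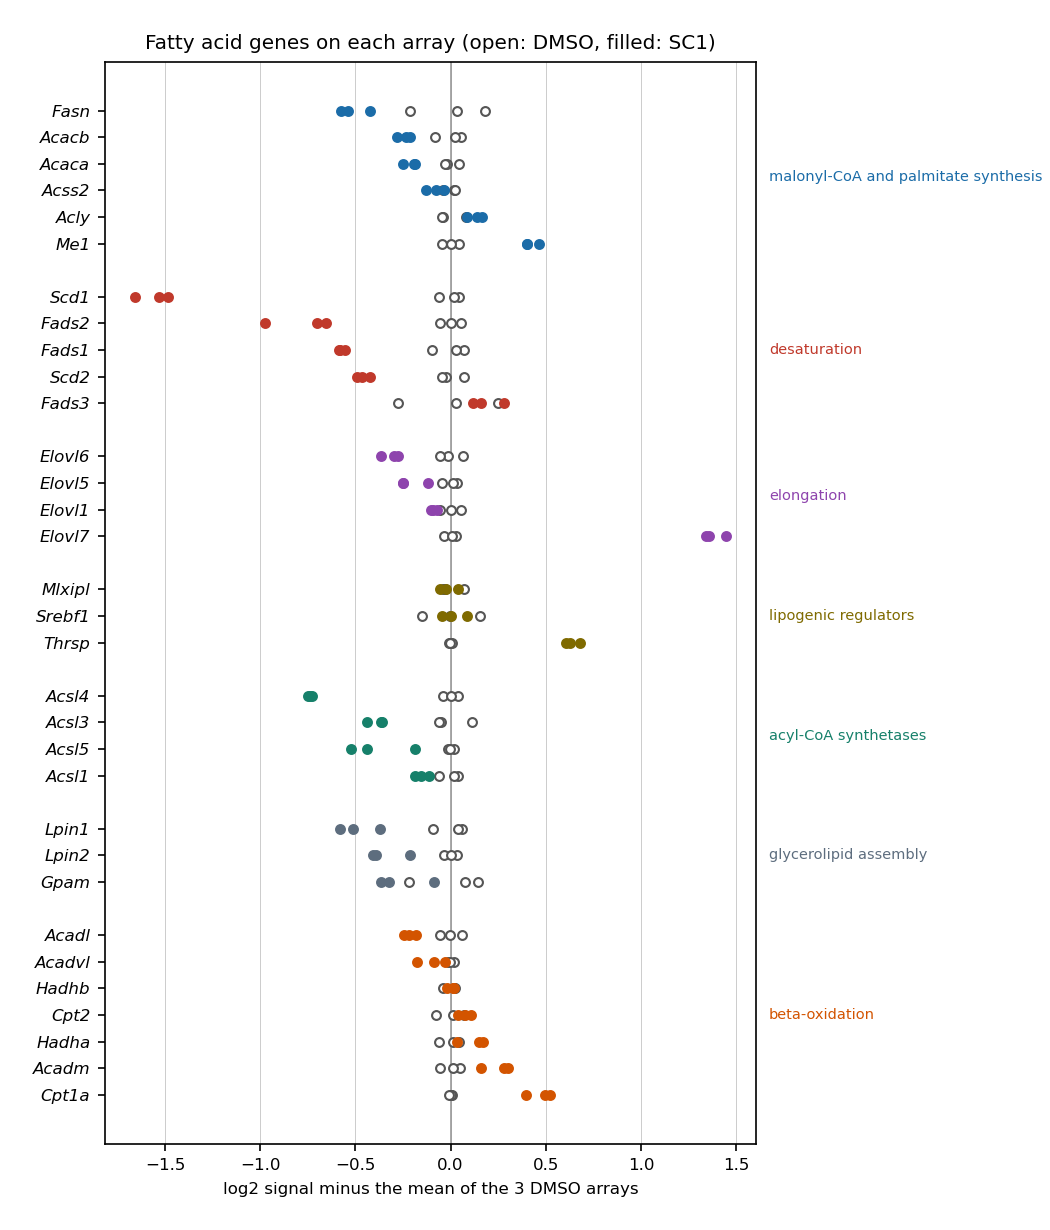
Each row is one of the 32 genes, grouped by role, and the horizontal axis is the log2 signal on an array minus the mean of the 3 DMSO arrays; open circles are DMSO arrays and filled circles are SC1 arrays. Scd1 lies far to the left and Elovl7 far to the right, the acyl-CoA synthetases all lie left of their DMSO arrays, and most beta-oxidation genes stay near 0.

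The RefSeq promoter table (GRCm38.p6) held an entry for 29 of the 32 members, Scd1, Scd2 and Fads1 being the others. It was searched on both strands, from 250 bases before to 50 bases after each start, for the letters bound by factors known from lipogenic genes. The NF-Y box CCAAT was present in at least 1 promoter of 17 of 29 members (58.6%), beside 41.1% of the 27025 genes in the table. It was present in 11 of the 15 synthesis and desaturation genes with an entry (73.3%) and in 1 of the 7 oxidation genes (14.3%). Of the members that fell, 7 of 13 held it, and of those that rose, 3 of 5. The core of the sterol regulatory element, TCACNCCAC, was found in Acsl1 and Mlxipl, beside 1.44% of all genes, and its shorter form CACCCCAC, which overlaps the core in Acsl1, in Acsl1, Elovl7 and Gpam (3.3% of all genes). The E-box CACGTG was found in Elovl5, Lpin2 and Mlxipl, beside 8.09% of all genes. The Sp1 box GGGCGG was found in 19 members, beside 38.2% of all genes. An exact direct repeat of AGGTCA with 1 base between, a strict form of the element of PPAR factors, was found in none of the 29, beside 0.0481% of all genes. So rare a string was unlikely to occur in 29 genes. Its absence therefore does not tell whether they hold PPAR sites. These are matches of letters in a fixed window, and binding was not measured.

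The 250 bases before the start are shown for 6 members, with the NF-Y, E-box and sterol element letters, on either strand, in capitals and positions counted back from -1 at the base before the start. Fasn (chr11:120824548-120824797, reverse strand) and Thrsp (chr7:97417551-97417800, reverse strand) are shown because they changed in opposite directions and both hold CCAAT more than once: Fasn at -90 to -86, -62 to -58 and -59 to -55, the last pair overlapping, and Thrsp at -79 to -75 and -52 to -48. Elovl5 (chr9:77917115-77917364, forward strand) fell and holds an E-box with 2 CCAAT boxes, while Elovl7 (chr13:108214154-108214403, forward strand) rose and holds the short sterol element at -123 to -116. The second promoter of Acsl1 (chr8:46490716-46490965, forward strand) has the only sterol element core of the members within 100 bases of a CCAAT box. Cpt1a (chr19:3323051-3323300, forward strand) is the oxidation gene with a CCAAT box, at -19 to -15.
Fasn: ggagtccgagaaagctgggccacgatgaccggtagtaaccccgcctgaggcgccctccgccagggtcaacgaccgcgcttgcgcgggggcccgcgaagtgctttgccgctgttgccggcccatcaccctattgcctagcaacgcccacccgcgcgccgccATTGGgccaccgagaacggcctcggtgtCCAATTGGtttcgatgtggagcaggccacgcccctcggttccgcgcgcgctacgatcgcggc
Thrsp: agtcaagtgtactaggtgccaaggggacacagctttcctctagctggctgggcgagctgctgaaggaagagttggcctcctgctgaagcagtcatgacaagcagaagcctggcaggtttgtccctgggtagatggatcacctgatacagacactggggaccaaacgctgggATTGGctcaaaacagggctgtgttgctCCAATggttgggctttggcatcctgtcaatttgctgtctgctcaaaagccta
Elovl5: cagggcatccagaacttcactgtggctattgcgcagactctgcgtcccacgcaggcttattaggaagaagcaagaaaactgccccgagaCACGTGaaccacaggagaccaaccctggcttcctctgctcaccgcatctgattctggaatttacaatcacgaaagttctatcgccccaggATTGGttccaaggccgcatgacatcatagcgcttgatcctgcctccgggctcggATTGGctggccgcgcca
Elovl7: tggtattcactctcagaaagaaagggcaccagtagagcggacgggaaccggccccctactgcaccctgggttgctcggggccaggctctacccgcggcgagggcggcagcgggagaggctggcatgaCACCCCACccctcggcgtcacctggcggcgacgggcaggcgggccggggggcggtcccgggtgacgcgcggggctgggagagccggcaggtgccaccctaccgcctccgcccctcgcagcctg
Acsl1: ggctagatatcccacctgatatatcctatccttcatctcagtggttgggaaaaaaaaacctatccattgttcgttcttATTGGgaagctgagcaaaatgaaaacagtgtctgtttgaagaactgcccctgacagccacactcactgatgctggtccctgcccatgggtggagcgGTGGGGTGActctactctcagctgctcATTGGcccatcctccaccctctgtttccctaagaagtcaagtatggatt
Cpt1a: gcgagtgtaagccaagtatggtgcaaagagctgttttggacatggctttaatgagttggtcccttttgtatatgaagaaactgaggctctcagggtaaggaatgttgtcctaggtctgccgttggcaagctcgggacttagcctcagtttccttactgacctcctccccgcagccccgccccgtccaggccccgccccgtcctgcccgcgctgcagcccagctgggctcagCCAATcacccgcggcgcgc

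Of the 6 genes of malonyl-CoA and palmitate synthesis, 3 fell, 1 rose and 2 did not pass, with a median log2 fold change of -0.15. Beside this count and those by role and group below, 20.2% of all genes tested fell and 18.1% rose. Fasn, which encodes fatty acid synthase, read 0.29, -0.10 and 0.15 in DMSO and -0.46, -0.31 and -0.42 in SC1. All 3 SC1 arrays were below all 3 DMSO arrays, although the DMSO arrays were themselves spread, with replicate 2 the lowest. Fasn fell 1.43-fold (log2 fold change -0.51, SE 0.107, adjusted p = 0.0125); with the slide column as a block its adjusted p was 0.0636, and over all alternatives 0.000539 to 0.0636.

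Acaca and Acacb encode the carboxylases that make malonyl-CoA, the cytosolic enzyme for synthesis and the mitochondrial-surface enzyme that restrains oxidation. Acaca read 3.89, 3.95 and 3.88 in DMSO and 3.71, 3.71 and 3.65 in SC1, and Acacb 2.31, 2.28 and 2.17 in DMSO and 2.04, 1.97 and 2.02 in SC1. Neither gene's groups overlapped, and both falls were small, by log2 fold changes of -0.21 with an SE of 0.0433 (adjusted p = 0.0115) and -0.24 (SE 0.0516, adjusted p = 0.0132). Acaca had 3 probes with log2 fold changes from -0.34 to -0.04, of which 2 passed, and Acacb 2 probes, of which 1 passed. Acaca lost its call under 6 of 20 alternatives (adjusted p 0.000394 to 0.294), among them quantile normalization (0.0597), spike-in scaling and the slide column block. With normexp and quantile normalization the log2 fold changes shrank to -0.12 for Acaca and -0.15 for Acacb. Acacb lost its call with spike-in scaling, the mean of its probes and the slide column block (adjusted p 0.000375 to 0.231).

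Me1, the malic enzyme that supplies cytosolic NADPH, moved the other way. Its signal was 1.72, 1.68 and 1.63 in DMSO and 2.14, 2.08 and 2.08 in SC1, with every SC1 array above every DMSO array. Me1 rose 1.34-fold (log2 fold change 0.42, SE 0.0446, adjusted p = 0.000942), and all 3 of its probes passed, with log2 fold changes of 0.29 to 0.42. Its call was lost with spike-in scaling (adjusted p = 0.0763, range over alternatives 4.91e-07 to 0.0763). Acly, which cuts citrate into acetyl-CoA, had a log2 fold change of 0.13 with an SE of 0.0524 (adjusted p = 0.103), and its groups did not overlap. Under quantile normalization Acly passed as higher, at 0.23 (adjusted p = 0.0187, range 0.00797 to 0.798). Acss2, the cytosolic enzyme that makes acetyl-CoA from acetate, had overlapping groups and a log2 fold change of -0.08 (adjusted p = 0.216).

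Among the 5 desaturase genes 4 fell and 1 did not pass, and their median log2 fold change of -0.57 was the lowest of the 7 roles. Scd1 and Scd2 encode the stearoyl-CoA desaturases that place the first double bond and make oleate. Scd1 read 1.44, 1.54 and 1.51 in DMSO and 0.01, -0.16 and -0.04 in SC1. The SC1 arrays lay more than 1 log2 unit below the lowest DMSO array, a gap several times the spread within either group. Scd1 fell 2.95-fold (log2 fold change -1.56, SE 0.0611, adjusted p = 3.00e-05), and it kept its call under all 20 alternatives. Scd2, the form found across embryonic and neural tissue, read 5.61, 5.70 and 5.59 in DMSO and 5.21, 5.14 and 5.17 in SC1, again with no overlap. It fell 1.38-fold (log2 fold change -0.46, SE 0.049, adjusted p = 0.000981).

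Fads1 and Fads2 encode the delta-5 and delta-6 desaturases of polyunsaturated fatty acid synthesis. Fads1 read 1.10, 1.27 and 1.23 in DMSO and 0.61, 0.62 and 0.65 in SC1. Fads2 read -2.02, -2.07 and -2.13 in DMSO and -2.73, -2.77 and -3.05 in SC1. In both genes the groups stood apart, and in Fads2 the lowest value was SC1 replicate 3. Fads1 fell 1.49-fold (log2 fold change -0.57, SE 0.0555, adjusted p = 0.000683) and Fads2 1.71-fold (log2 fold change -0.78, SE 0.0924, adjusted p = 0.0015). The Fads2 probe was dim, and its log2 fold change was -0.40 with normexp background correction and 75th percentile scaling (adjusted p = 0.000103, range over alternatives 5.03e-06 to 0.0213). Fads3, a related desaturase gene, did not pass: its signal was -2.77, -2.99 and -3.29 in DMSO and -2.74, -2.86 and -2.90 in SC1, the groups overlapped, and the log2 fold change was 0.19 (SE 0.136, adjusted p = 0.336). It was 0.31 without DMSO replicate 1 and 0.05 without DMSO replicate 3.

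**Figure D2:**
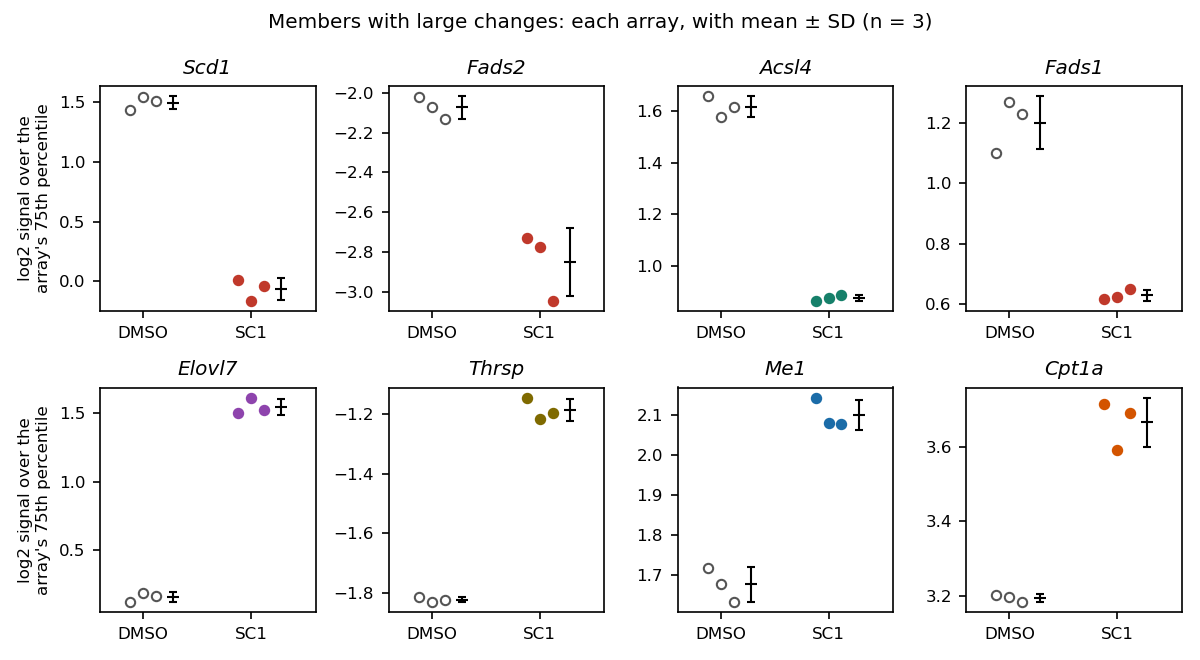
The 8 panels show members with large changes, picked after their values were seen; the vertical axis of each panel is the log2 signal over the array's 75th percentile, points are single arrays and the bars are the mean ± SD of 3 arrays. Scd1, Fads2, Acsl4 and Fads1 are lower on every SC1 array, and Elovl7, Thrsp, Me1 and Cpt1a are higher on every SC1 array.

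Of the 4 elongase genes 1 rose, 2 fell and 1 did not pass. Elovl7, which lengthens saturated long chains, read 0.12, 0.19 and 0.17 in DMSO and 1.50, 1.61 and 1.52 in SC1. The SC1 arrays were all more than 1 log2 unit above the highest DMSO array. Elovl7 rose 2.61-fold (log2 fold change 1.38, SE 0.0476, adjusted p = 1.99e-05), under all 20 alternatives. Elovl6, which turns palmitate into stearate, the substrate of Scd1, read 4.63, 4.56 and 4.52 in DMSO and 4.27, 4.20 and 4.29 in SC1 and fell 1.24-fold (log2 fold change -0.31, SE 0.0504, adjusted p = 0.00459). Its groups did not overlap, but it lost its call with spike-in scaling (adjusted p = 0.111) and with slide column as the block (0.0535), the range over alternatives being 1.10e-05 to 0.111.

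Elovl5, which lengthens polyunsaturated chains after the Fads2 step, fell by a log2 fold change of -0.21 with an SE of 0.0544 (adjusted p = 0.0278). Its signal was 3.20, 3.12 and 3.17 in DMSO and 3.05, 2.91 and 2.91 in SC1. The groups did not overlap, and SC1 replicate 1 was the closest to the DMSO arrays. The call was lost without DMSO replicate 1, 2 or 3 or SC1 replicate 2 or 3 (adjusted p 0.0521 to 0.0851), and over all alternatives the adjusted p ran from 0.0014 to 0.319. Its log2 fold change was -0.12 with the slide column as a block and -0.14 in the authors' deposited log2 table. Elovl1, the elongase of saturated very long chains, had non-overlapping groups and a log2 fold change of -0.09 (adjusted p = 0.18).

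Of the 3 lipogenic regulators, only Thrsp passed. Srebf1, which encodes SREBP-1, had a log2 fold change of 0.02 with an SE of 0.0869 (adjusted p = 0.909), and its SC1 values of -2.13, -2.26 and -2.21 lay within its DMSO values of -2.37, -2.06 and -2.22. The Srebf1 probe was dim, like that of Fads2. Mlxipl, which encodes ChREBP, had a log2 fold change of -0.01 with an SE of 0.0509 (adjusted p = 0.853), and its 2 probes differed in sign. The sign of both genes turned under some alternatives, within -0.06 to 0.09 for Srebf1 and -0.06 to 0.03 for Mlxipl. These arrays measure messenger RNA, and the processing of the SREBP-1 protein that makes it active was not measured.

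Thrsp, also called Spot 14, encodes a small protein induced with lipogenic enzymes in liver and fat. It read -1.82, -1.83 and -1.82 in DMSO and -1.14, -1.22 and -1.20 in SC1. The values within each group were close together and the groups stood apart. Thrsp rose 1.56-fold (log2 fold change 0.64, SE 0.0398, adjusted p = 0.000139), the opposite direction to Fasn. Both genes hold CCAAT boxes in the promoter sequences given earlier, as did 41.1% of all genes searched, and binding was not measured.

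All 4 acyl-CoA synthetase genes fell, with a median log2 fold change of -0.39. These enzymes activate free fatty acids for every later use. Acsl4, which prefers arachidonate and other polyunsaturated chains, read 1.66, 1.58 and 1.62 in DMSO and 0.87, 0.88 and 0.89 in SC1. Its SC1 arrays agreed to within hundredths and lay far below the DMSO arrays. Acsl4 fell 1.67-fold (log2 fold change -0.74, SE 0.0405, adjusted p = 8.85e-05). Acsl3, an enzyme of the endoplasmic reticulum and lipid droplets, read 1.01, 1.00 and 1.17 in DMSO and 0.70, 0.62 and 0.70 in SC1, with no overlap, and fell 1.31-fold (log2 fold change -0.39, SE 0.0615, adjusted p = 0.00443); its adjusted p was 0.054 with the slide column as a block, and 1.34e-05 to 0.054 over all alternatives.

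The other 2 synthetases had weaker calls. Acsl5, an enzyme of mitochondria and endoplasmic reticulum, read -0.85, -0.82 and -0.84 in DMSO and -1.03, -1.36 and -1.28 in SC1. The DMSO arrays were nearly equal, and SC1 replicate 1 was nearest to them. Acsl5 fell by a log2 fold change of -0.38 with an SE of 0.0899 (adjusted p = 0.0186), but not without DMSO replicate 1, 2 or 3 or SC1 replicate 3 (adjusted p 0.0534 to 0.0606). Its log2 fold change was -0.22 with normexp and 75th percentile scaling. Within the slide column that held SC1 replicate 1 it was -0.19 (adjusted p = 0.105 with that column as a block, range over alternatives 0.000569 to 0.105). Acsl1, a main synthetase of liver, fat and heart, read 2.29, 2.27 and 2.19 in DMSO and 2.06, 2.09 and 2.14 in SC1. The groups stood close but did not overlap. A second Acsl1 probe gave -0.05 (adjusted p over all probes = 0.702), and the mean of both gave -0.10 (adjusted p = 0.154). The fall of the brighter probe, with a log2 fold change of -0.15 with an SE of 0.0469 (adjusted p = 0.0472), was lost with each of the 6 arrays left out in turn (adjusted p 0.0513 to 0.132) and with replicate numbers as the block (0.126). Over all alternatives its adjusted p ran from 0.011 to 0.47.

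Among the 3 genes of glycerolipid assembly, Lpin1 and Lpin2 fell and Gpam did not pass. Lipins remove phosphate from phosphatidate to give diacylglycerol, the step before triglyceride and the main phospholipids. Lpin1 read -0.72, -0.74 and -0.87 in DMSO and -1.29, -1.15 and -1.36 in SC1, and fell 1.4-fold (log2 fold change -0.49, SE 0.0732, adjusted p = 0.00356). Lpin2 read -0.99, -1.06 and -1.02 in DMSO and -1.43, -1.24 and -1.41 in SC1, and fell 1.26-fold (log2 fold change -0.34, SE 0.0639, adjusted p = 0.00884). In neither gene did the groups overlap; Lpin2 lost its call with spike-in scaling (adjusted p = 0.0737, range 0.000722 to 0.0737). A second Lpin1 probe was not well above background on any array.

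Gpam, the mitochondrial acyltransferase that starts glycerolipid synthesis, had a dim probe with signals of -3.44, -3.80 and -3.51 in DMSO and -3.67, -3.95 and -3.91 in SC1. The groups overlapped, and the log2 fold change of -0.26 with an SE of 0.121 (adjusted p = 0.147) turned to 0.04 with normexp and 75th percentile scaling. Without DMSO replicate 2 Gpam passed as lower (adjusted p = 0.0485), the range over alternatives being 0.0485 to 0.732.

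The 7 beta-oxidation genes included 2 that rose, 1 that fell and 4 that did not pass, at a median log2 fold change of 0.07. That median was 0.04 without DMSO replicate 2. Among all genes tested 18.1% rose and 20.2% fell, and 38.3% passed in either direction. Cpt1a encodes the liver-type carnitine palmitoyltransferase 1, the enzyme that malonyl-CoA inhibits. It read 3.20, 3.20 and 3.18 in DMSO and 3.72, 3.59 and 3.69 in SC1. The DMSO arrays agreed to within hundredths and all SC1 arrays were higher. Cpt1a rose 1.39-fold (log2 fold change 0.47, SE 0.0475, adjusted p = 0.000791), both of its probes passed, and it kept its call under all 20 alternatives.

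The acyl-CoA dehydrogenases, which carry out the first step of each oxidation round, went in different directions. Acadm, for medium chains, read 4.83, 4.73 and 4.80 in DMSO and 5.07, 4.94 and 5.09 in SC1, and rose by a log2 fold change of 0.25 with an SE of 0.0565 (adjusted p = 0.0176). Acadl, for long chains, read 0.08, 0.19 and 0.13 in DMSO and -0.11, -0.09 and -0.05 in SC1, and fell, with a log2 fold change of -0.22 with an SE of 0.0472 (adjusted p = 0.0149). Neither gene's groups overlapped. The Acadm call was lost without DMSO replicate 2 or 3 or SC1 replicate 1 or 3 (adjusted p 0.0519 to 0.0598, range over alternatives 0.000157 to 0.443), and the Acadl call without SC1 replicate 1 (0.0518, range 0.00319 to 0.285). Acadvl, for very long chains, had non-overlapping groups and a log2 fold change of -0.10 with an SE of 0.0504 (adjusted p = 0.184).

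Cpt2, which releases the acyl-CoA inside the mitochondrion, had a log2 fold change of 0.07 (adjusted p = 0.318). Its second probe gave 0.23, and the mean of both passed as higher (adjusted p = 0.0413, range 0.0413 to 0.932). Hadha and Hadhb encode the subunits of the trifunctional protein, which completes the round for long chains. Hadha had a log2 fold change of 0.12 with an SE of 0.0556 (adjusted p = 0.156) and Hadhb of 0.0045 with an SE of 0.0397 (adjusted p = 0.943). The groups overlapped in Cpt2, Hadha and Hadhb alike, and the sign of Hadhb turned under some alternatives, within -0.04 to 0.08.

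To set synthesis against oxidation within each array, every gene was centred on its DMSO mean, and the mean of the 7 oxidation genes was subtracted from the mean of the 18 genes of palmitate synthesis, desaturation, elongation and regulation. The difference was 0.03, 0.01 and -0.04 in DMSO and -0.19, -0.18 and -0.26 in SC1. All SC1 arrays were below all DMSO arrays, and the group means differed by -0.21. Because the genes were taken as a chosen list, this is a description with no test. Of the 18 synthesis genes 9 fell, 3 rose and 6 did not pass, with a median log2 fold change of -0.15, which ran from -0.19 to -0.09 under other scalings. The median of the oxidation genes ran from 0.03 to 0.13. Single genes moved the contrast, which was -0.13 without Scd1 and -0.30 without Elovl7, both left out after their values were seen. No oxidation gene was left out in this way. Cpt1a had the largest log2 fold change of the 7, at 0.47 beside their median of 0.07, so it weighs most on their mean.

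**Figure D3:**
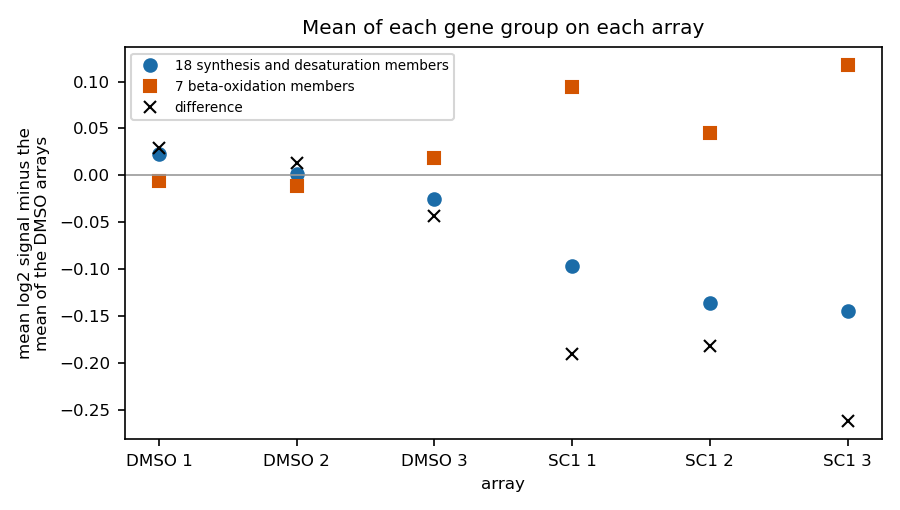
For each of the 6 arrays the vertical axis gives the mean log2 signal minus the mean of the DMSO arrays, for the 18 synthesis and desaturation genes (circles), the 7 beta-oxidation genes (squares) and their difference (crosses). The crosses run from -0.04 to 0.03 for DMSO and from -0.26 to -0.18 for SC1.

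Further genes of the same pathways, in 9 lists, changed in both directions. The lists came from general knowledge of the pathway and were chosen with earlier results of these data known. Beside the list counts below, 20.2% of all genes tested fell and 18.1% rose. The genes named are those of smallest p in each list, so they need not show its balance. Of 12 genes that process SREBP or regulate synthesis, 5 fell and 1 rose, with a median log2 fold change of -0.17. Insig1, a sterol-regulated anchor that keeps SREBP in the endoplasmic reticulum and is itself an SREBP target, read 0.26, 0.30 and 0.38 in DMSO and -0.50, -0.28 and -0.66 in SC1. Its groups stood apart, and it fell 1.73-fold (log2 fold change -0.79, SE 0.101, adjusted p = 0.00193). Mid1ip1, a partner of Thrsp that promotes polymerisation of acetyl-CoA carboxylase, fell (log2 fold change -0.34, adjusted p = 0.00286), opposite to Thrsp; with spike-in scaling its adjusted p was 0.0812 (range 6.51e-06 to 0.0812). Nr1h3, which encodes the oxysterol receptor LXR-alpha, an activator of Srebf1, rose (log2 fold change 0.69, adjusted p = 0.00822), by 0.39 with normexp and quantile normalization (adjusted p = 0.000881, range 8.41e-05 to 0.049).

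Of 9 genes that supply acetyl-CoA, citrate or NADPH, 2 rose and 2 fell, with a median of 0.02. Slc25a1, which carries citrate out of the mitochondrion for synthesis, read 2.64, 2.66 and 2.66 in DMSO and 2.11, 2.07 and 2.08 in SC1 and fell 1.48-fold (log2 fold change -0.57, SE 0.0377, adjusted p = 0.000172). Acss1, which makes acetyl-CoA from acetate inside the mitochondrion, read 1.98, 1.87 and 1.89 in DMSO and 2.60, 2.68 and 2.65 in SC1 and rose 1.66-fold (log2 fold change 0.73, SE 0.0483, adjusted p = 0.000169). In both genes the groups stood far apart, in opposite directions. G6pdx, the entry enzyme of the NADPH-making pentose phosphate pathway, fell (log2 fold change -0.22, adjusted p = 0.014), but not without DMSO replicate 3 (adjusted p = 0.0515), nor with normexp and quantile normalization, at -0.13 (0.0611, range 0.00045 to 0.294).

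In the list of further elongation and desaturation enzymes 5 of 12 fell and 1 rose, with a median of -0.11. Hsd17b12, the ketoacyl-CoA reductase of the elongation cycle, read 2.25, 1.96 and 1.95 in DMSO and 1.33, 1.35 and 1.36 in SC1, with no overlap, and fell 1.63-fold (log2 fold change -0.71, SE 0.0881, adjusted p = 0.00177). Elovl4, the elongase of ultra-long chains, fell (log2 fold change -0.37, adjusted p = 0.00367; with spike-in scaling 0.055, range 2.55e-05 to 0.055). Degs2, a sphingolipid desaturase and hydroxylase, was not well above background on any DMSO array and was on all SC1 arrays. Degs2 entered the test only through its SC1 arrays, so its call as higher (adjusted p of the fit = 0.000316) is not independent of the filter. Its fold was 1.82 when each DMSO array was set at the higher of 2 signals. These were its own signal and the array's lowest signal well above background of any probe, which need not be the limit of this probe. That fold holds for the processed signals alone: with normexp background correction the log2 fold change of Degs2 was 0.14 after quantile normalization and 0.29 after 75th percentile scaling, against a fitted 1.03. Of 13 further genes of glycerolipid assembly 5 fell and 2 rose, with a median of -0.13. The acyltransferases of the first steps diverged: Gpat3 rose 2-fold (log2 fold change 1.00, SE 0.0729, adjusted p = 0.000236) and Agpat4 1.47-fold (log2 fold change 0.56, adjusted p = 0.00104), while Gpat2 fell 1.32-fold (log2 fold change -0.40, adjusted p = 0.00168).

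Of 8 genes of mitochondrial fatty acid synthesis, the separate pathway that feeds lipoate, Lipt1, a lipoyltransferase, fell (log2 fold change -0.49, adjusted p = 0.00211) and Acsf3, a malonyl-CoA synthetase, rose (log2 fold change 0.26, adjusted p = 0.00868; lost with spike-in scaling, at 0.377, and with the slide column block, range 0.000118 to 0.377). The median was 0.03. Of 9 genes of fatty acid uptake and binding 2 fell and 1 rose, with a median of 0.02. The binding protein gene Fabp5 fell (log2 fold change -0.30, adjusted p = 0.00891), and lost its call with spike-in scaling and the slide column block (range 4.97e-05 to 0.136). The bile acid and fatty acid transporter Slc27a5 fell (log2 fold change -0.24, adjusted p = 0.0369) and the binding protein gene Fabp3 rose (log2 fold change 0.17, adjusted p = 0.0387). Slc27a5 lost its call without DMSO replicate 1 or 3 or any 1 of the SC1 arrays (adjusted p 0.0704 to 0.106, range 0.0112 to 0.221), and Fabp3 without DMSO replicate 1 or 2 or any 1 of the SC1 arrays (0.0631 to 0.113, range 0.000909 to 0.672). A second Fabp3 probe gave 0.13 and did not pass (adjusted p over all probes = 0.137), and the brighter probe gave 0.26 with normexp and quantile normalization.

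On the side of oxidation, 5 of 20 further mitochondrial genes rose and 2 fell, with a median of 0.02. The shares over all genes tested were 18.1% and 20.2%. The genes named here from this list, those of smallest p, all rose. Hadh, the short-chain hydroxyacyl-CoA dehydrogenase, read 4.67, 4.62 and 4.68 in DMSO and 5.02, 4.98 and 4.98 in SC1 and rose 1.27-fold (log2 fold change 0.34, SE 0.0404, adjusted p = 0.0015; with spike-in scaling 0.19, range 1.45e-06 to 0.19). Cpt1b, the muscle-type partner of Cpt1a, read -1.95, -1.83 and -1.94 in DMSO and -1.21, -1.40 and -1.13 in SC1 and rose 1.58-fold (log2 fold change 0.66, SE 0.0796, adjusted p = 0.00161). Both genes had all SC1 arrays above all DMSO arrays. Acad12, of the acyl-CoA dehydrogenase family, rose (log2 fold change 0.49, adjusted p = 0.00157). Of 15 peroxisomal genes 5 rose and 3 fell, with a median of 0.11. Amacr, the racemase for branched chains, rose 1.49-fold (log2 fold change 0.57, adjusted p = 0.000387), and the thiolase gene Acaa1b rose (log2 fold change 0.27, adjusted p = 0.0156), though not without DMSO replicate 1 or 3 or SC1 replicate 1 (adjusted p 0.0512 to 0.0536, range 0.000547 to 0.372).

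Of 15 regulators of oxidation 4 rose and 3 fell, with a median of 0.01. Ppargc1b, the coactivator PGC-1 beta, which serves both mitochondrial genes and SREBP-1, read -2.00, -1.75 and -1.85 in DMSO and -2.85, -3.17 and -2.80 in SC1. Its SC1 arrays lay far below, and it fell 2.1-fold (log2 fold change -1.07, SE 0.117, adjusted p = 0.00104), by 0.56 on the log2 scale with normexp and 75th percentile scaling (adjusted p = 9.32e-06, range 2.22e-07 to 0.0181). Esrra, the nuclear receptor that PGC-1 proteins act through, fell (log2 fold change -0.45, adjusted p = 0.000564). Prkag1, a subunit of AMP-activated protein kinase, rose (log2 fold change 0.32, adjusted p = 0.00268; with spike-in scaling 0.224, range 1.14e-05 to 0.224).

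**Figure D4:**
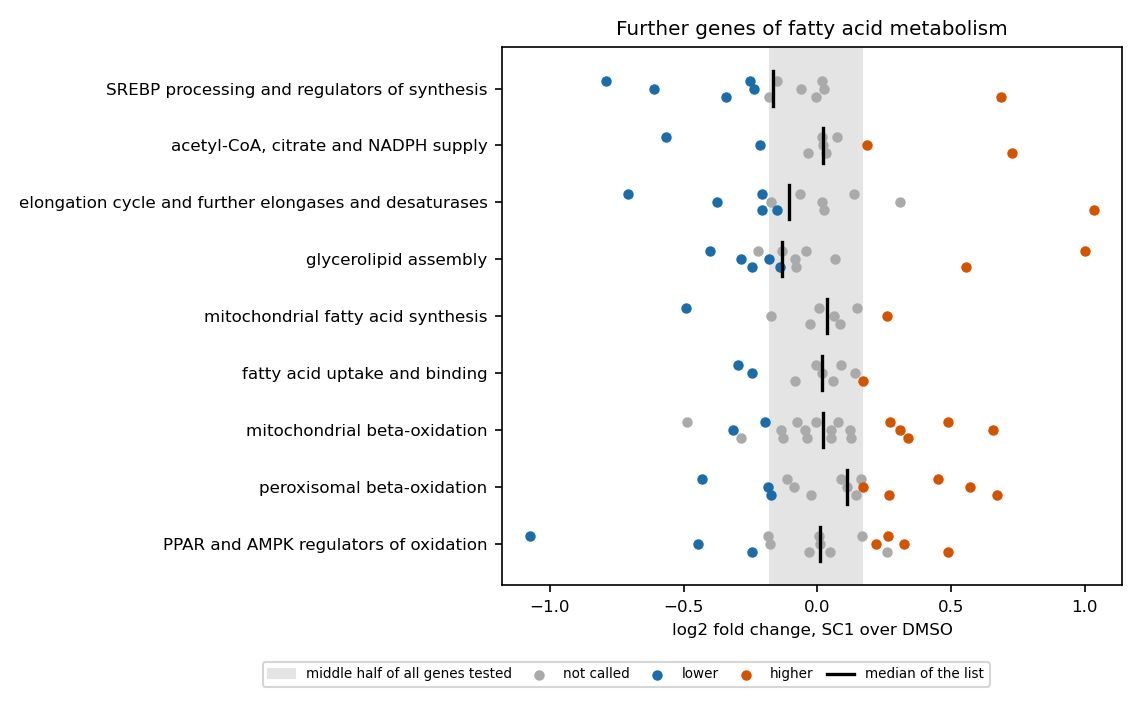
Each point is a gene of one of the 9 further lists, placed by its log2 fold change of SC1 over DMSO; blue genes fell, orange genes rose, grey genes did not pass, black bars are list medians, and the grey band runs between the quartiles of all genes tested, -0.18 to 0.17. Every list median lies inside the band, from -0.17 for SREBP processing to 0.11 for peroxisomal oxidation.

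The labelled cell type was checked by its markers, and markers of other cell types were summed on each array as multiples of the 75th percentile signal. All 12 embryonic stem cell markers were well above background on every array, and their sum was 720.8 to 744.6 in DMSO and 714.7 to 753.8 in SC1 (4 higher, 4 lower). Dppa5a alone gave 369.2 to 397 in DMSO and 403.7 to 437.7 in SC1. Without Dppa5a the sum was lower in SC1, at 304.3 to 316.1 against 347.6 to 351.6 in DMSO. A sum is weighted towards its brightest probe. Among the 12 stem cell markers log2 fold changes ran from -2.36 for Utf1 to 0.72 for Fbxo15. Trophoblast markers summed to 15.6 to 16.2 on DMSO and 34.7 to 36.7 on SC1 arrays (4 of 6 tested higher, 2 lower), of which Tfap2c alone gave 10.8 to 11.5 and 28.2 to 30.3, with Elf5 and Hand1 not well above background on any array. Cdx2, counted as lower, was well above background on every DMSO array and on no SC1 array. It entered the test only through its DMSO arrays, so its call is not independent of the filter. Primitive endoderm markers summed to 12.96 to 14.24 and 21.3 to 21.6 (4 of 8 higher, 0 lower), of which Lama1 alone gave 11.9 to 13.2 and 20.1 to 20.5. Fibroblast markers summed to 2.90 to 3.09 and 2.71 to 2.82 (5 of 7 tested higher, 1 lower), and without Thy1 to 1.53 to 1.61 and 2.07 to 2.16, with Lum, Postn and Twist2 not well above background on any array. Fat and liver are the main lipogenic tissues of the body. Adipocyte markers summed to 0.46 to 0.523 and 0.543 to 0.589 (1 of 3 tested higher, 1 lower; Fabp4, Lep and Plin1 not well above background on any array), and hepatocyte markers to 12.7 to 13 and 9.54 to 10.3 (1 of 5 tested higher, 1 lower; Alb, Apoa1 and Cyp7a1 likewise). Apoa2 made up nearly all of the hepatocyte sum, and the rest came to 0.262 to 0.288 and 0.281 to 0.345. The part of these shifts in the changes of the fatty acid genes was not tested.

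All 6 arrays lay on 1 slide. One slide column held the 3 DMSO arrays and SC1 replicate 1, and the other held SC1 replicates 2 and 3. A fit with the column as a block therefore takes its fold changes from SC1 replicate 1 alone. Within the first column 31 of the 32 members kept the sign of their log2 fold change, Scd1 at -1.48, Elovl7 at 1.34, Fads2 at -0.66, Acsl4 at -0.75 and Cpt1a at 0.52. The exception was Hadhb, at -0.02. This rests on 1 SC1 array, which with the same DMSO arrays also enters the full fold change, so agreement in sign is partly built in. Taken against the same DMSO arrays, SC1 replicate 1 and SC1 replicates 2 and 3 differed in sign for Hadhb (-0.02 and 0.02). They also differed for Srebf1 (0.09 and -0.02) and Mlxipl (-0.06 and 0.01). Of the 21 members called, 9 kept their call under all 20 alternatives: Scd1, Scd2, Fads1, Fads2, Acsl4, Lpin1, Elovl7, Thrsp and Cpt1a. When each array was left out in turn, 16 of the 21 kept their call every time.

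**Figure D5:**
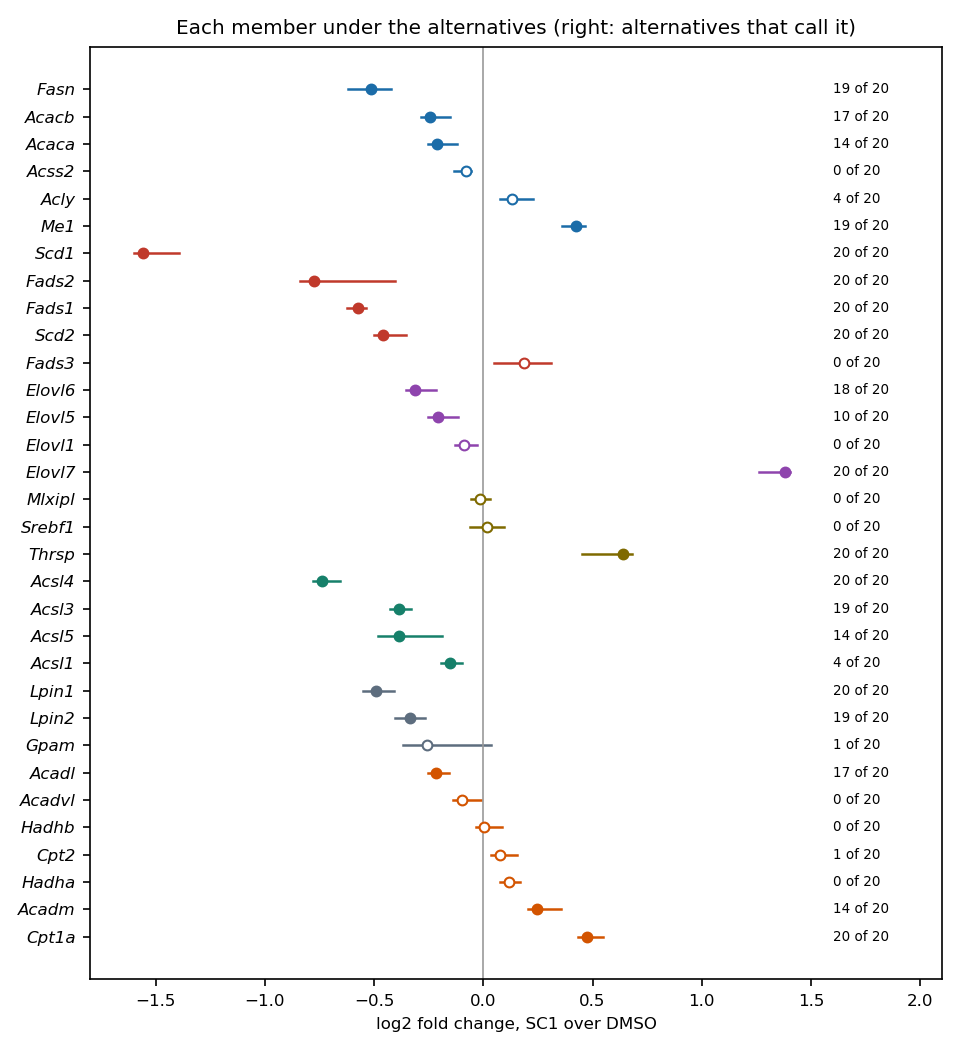
Points are the log2 fold changes of the 32 members, filled where the gene passed and open where it did not; lines span the values under the 20 alternatives, and the numbers on the right say how many alternatives call the gene. For Scd1, Fads1, Fads2, Scd2, Acsl4, Lpin1, Elovl7, Thrsp and Cpt1a the whole line stays on one side of 0 and 20 of 20 alternatives call them.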

How the data were processed

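Total RNA of 3 SC1 and 3 DMSO samples was measured on 6 single-colour arrays. The scans were read with Agilent Feature Extraction 10.7, as the submitters' processing notes say. The deposited files hold, per the file headers, an intensity for each spot already corrected for background by the scanner software, its raw median intensity and that of its surroundings, and flags for spots outlying or well above background. The authors also deposited a table of log2 intensities, whose median was 5.175 on every array and whose method is not given in the sources used here.

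Control spots and spots flagged as outliers were left out, and the log2 processed signals of a probe were averaged and set relative to the array's 75th percentile. A probe was used if every array of 1 or both groups called it well above background (35321 probes). Symbols came from a RefSeq table by accession (27235 probes). The brightest kept probe stood for a gene; other probes are given where their call or sign differs. Of 45 member probes 44 were kept. The groups were compared in R 4.3.3 by limma 3.58.1 with lmFit, eBayes and two-sided p-values, adjusted by Benjamini-Hochberg over 25439 genes at a threshold of 0.05, and the pipeline was tested on simulated data. The 32 members, 9 further lists and marker lists were chosen with earlier results of these data known. All members are named, and of each further list up to 3 that passed, those of smallest p. For 1 gene so chosen no values are reported here. Alternatives were other scalings (quantile, median of detected probes, spike-in probes), the deposited log2 table, normexp background (offset 50) before either quantile or 75th percentile scaling, other filters and probe rules, an intensity trend, array weights, the replicate number or slide column as a block, a threshold of 0.01 and leaving out each array. Leaving Scd1 or Elovl7 out of the contrast was added after seeing the data. Plots were made in matplotlib 3.10.9 under Python 3.11.15.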

Additional observations from a re-analysis of the deposited data

How the results depend on the processing

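No member that passed changed direction under any alternative run. Genes called numbered 9751, against 5068 with spike-in scaling, 5545 with the slide column as a block and 5792 at an adjusted p under 0.01. Members called lower numbered 8, 7 and 9 under these settings, against 16, and members called higher were 3 with spike-in scaling, against 5. Over all genes 2780, 2855 and 3002 were called lower under these settings, against 5139. With spike-in scaling 2288 of all genes were called higher, against 4612. The median log2 fold change of the synthesis and desaturation genes, -0.15, was -0.097 with quantile normalization, -0.19 with spike-in scaling, -0.11 with normexp and quantile normalization, -0.095 with the deposited log2 table and -0.10 with the slide column block. That of the beta-oxidation genes, 0.07, was 0.13, 0.034, 0.12, 0.13 and 0.038 under the same settings, 0.056 with normexp and 75th percentile scaling and 0.12 with the mean of a gene's probes. The contrast of synthesis minus oxidation, -0.21, was -0.13 without Scd1 and -0.30 without Elovl7. The stricter threshold calls fewer genes by construction. The slide column block takes its fold changes from SC1 replicate 1 alone against the DMSO arrays, because the other column held no DMSO array. The causes of the other moves were not tested.

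When each array was left out in turn, genes called ranged from 7747 to 8390, members called lower from 13 to 14 and members called higher from 4 to 5. The synthesis median ranged from -0.15 to -0.13, the oxidation median from 0.035 to 0.11 and the contrast from -0.23 to -0.19.

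The replicate numbers did not pair the samples: deviations of same-numbered arrays correlated at -0.0133, -0.0365 and -0.0154, and no DMSO array correlated best with the SC1 array of its own number. With the replicate number as a block 7910 genes were called, with 15 members lower and 5 higher. The number of arrays limits what could be called.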
